A study of Mus musculus with 24 samples.

Results

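Connexins are the membrane proteins that form gap junctions, and 6 connexin genes, grouped under the name vascular connexin genes, were followed here: Gja1, Gja4, Gja5, Gjc1, Gjb2 and Gjb6. The members were chosen by symbol, through the Ensembl identifier of each row, and make up 6 of the 54752 genes in the count table. All 6 had a row, and 4 of them, Gja1, Gja4, Gja5 and Gjc1, passed the filter on low counts that left 16463 genes for testing. Gjb2 and Gjb6 did not pass it and are given by their counts.

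RNA-Seq was run on the ductus arteriosus (DA), the fetal vessel that joins the pulmonary artery to the aorta, and on the ascending aorta. The tissue came from mouse embryos of E18.5. The study asked what the loss of Prdm6, a gene of smooth muscle cells, does to the vessel wall, and used the aorta to see whether the effect is tied to one vessel. The Prdm6-deficient embryos carried Wnt1Cre;PRDM6f/f, that is, 2 floxed Prdm6 alleles and Cre driven by the Wnt1 promoter. They gave 5 DA and 5 aorta libraries. Of the 7 control DA libraries, 5 came from PRDM6wt/f embryos, 1 from a PRDM6wt/wt embryo and 1 from a Wnt1Cre;PRDM6wt/wt embryo. The 6 control aorta libraries came from 5 PRDM6wt/f embryos and the same Wnt1Cre;PRDM6wt/wt embryo. Most controls therefore had 1 floxed allele and no Cre, and only 1 control embryo carried Cre. Wnt1Cre acts in neural crest cells, which give rise to the smooth muscle of these vessels and not to their endothelium. Prdm6-deficient DA replicates 1 and 2 were pools of 2 embryos each, and replicate 4 of that group was not analysed here. Embryos often gave both vessels, so the DA and aorta libraries are not independent of each other. The libraries held between 15163974 and 22610547 counts, with a median of 19985259.

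Gap junction channels join neighbouring cells and let ions and small molecules pass, which spreads electrical and calcium signals along the endothelium, along the smooth muscle and between the layers. In arteries, Gja1 (Cx43) is made by endothelial and smooth muscle cells, Gja4 (Cx37) and Gja5 (Cx40) mainly by the endothelium, with Gja4 also in some mural cells, and Gjc1 (Cx45) mainly by smooth muscle. Gjb2 (Cx26) and Gjb6 (Cx30) are best known from epithelia, the inner ear and glia.

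Levels are given in CPM, after TMM scaling of the library sizes. The targeted gene, Prdm6 (ENSMUSG00000069378.13), came first as a check of the labels. It stood at 78.1, 70.8, 77.7, 78.5 and 58.6 CPM in Prdm6-deficient DA replicates 1, 2, 5, 6 and 7, and control DA ran from 84.9 to 127 CPM with a median of 104. In the aorta it stood at 69.6, 70.1, 68.5, 81.2 and 61.9 CPM in Prdm6-deficient replicates 1 to 5, against 95.6 to 135 CPM with a median of 108 in controls. Every Prdm6-deficient library lay below every control library of its vessel. The counts cover the whole gene, so transcripts that lack the floxed exons count too, and the decrease says little about how much working transcript was left. The log2 fold change was -0.57 ± 0.11 (SE) in the DA and -0.69 ± 0.11 in the aorta.

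Markers of the vessel wall were present in every group. The summed level of 10 smooth muscle markers, led by Acta2 and Tagln, averaged 20330 CPM over the control DA libraries, 11230 CPM over the Prdm6-deficient DA libraries, 10880 CPM over the control aorta and 10830 CPM over the Prdm6-deficient aorta. The 12 endothelial markers, led by Pecam1 in every group, summed to a mean of 1171 CPM in control DA, 1374 in Prdm6-deficient DA, 1031 in control aorta and 1482 in Prdm6-deficient aorta. No marker of either list was at or under 3 counts in all libraries of a group. The samples are bulk tissue, so fewer cells of a type and less RNA per cell cannot be told apart in any of the results.

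The start regions of the members differ in sequence. The RefSeq promoter table (GRCm38.p6) held 5 of the 6 members and not Gjc1. The sequences of Gja1 and Gja4 are shown because these genes moved with genotype, in opposite directions. Each line gives the 250 bases before the start site, 5′ to 3′ on the gene's strand. Capitals mark matches, on either strand, to the core motifs of 4 kinds of factor in the list of connexin gene regulators, called AP-1, GC box, T-box core and GATA here. The Gja1 window is chr10:56377050-56377299 on the + strand and the Gja4 window is chr4:127314040-127314289 on the - strand.
Gja1: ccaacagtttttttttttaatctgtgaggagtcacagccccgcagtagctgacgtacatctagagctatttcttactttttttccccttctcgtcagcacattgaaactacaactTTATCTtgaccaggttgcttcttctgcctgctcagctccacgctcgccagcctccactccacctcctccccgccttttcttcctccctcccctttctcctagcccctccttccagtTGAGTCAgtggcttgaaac
Gja4: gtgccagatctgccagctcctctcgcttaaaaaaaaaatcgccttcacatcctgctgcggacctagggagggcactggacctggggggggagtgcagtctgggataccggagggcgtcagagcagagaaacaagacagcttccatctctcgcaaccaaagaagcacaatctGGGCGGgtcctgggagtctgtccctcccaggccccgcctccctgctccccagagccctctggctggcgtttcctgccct
The Gja1 window held 1 AP-1 match, which starts 19 bases before the start site, and 1 GATA match on the opposite strand. The Gja4 window held 1 GC box. No marked match overlaps another. Among 32851 promoter windows of this length, 4.46% held the AP-1 letters, 32.7% the GC box, 16.3% the T-box core and 9.99% the GATA letters. The Gja5 window had 1 GC box, Gjb2 had 2, and Gjb6 had no match to any of the 4 motifs. A match is a description of the letters only.

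Gja1 (ENSMUSG00000050953.10, on chromosome 10) is the connexin shared by endothelium and smooth muscle. In the Prdm6-deficient DA it stood at 35.0, 59.8, 27.9, 49.1 and 53.8 CPM in replicates 1, 2, 5, 6 and 7. In the control DA its lowest value was 75.0 CPM, its median 119 CPM and its highest 145 CPM. The groups did not overlap, and the highest Prdm6-deficient library, replicate 2, lay below the lowest control. In the Prdm6-deficient aorta Gja1 stood at 73.5, 95.9, 34.7, 64.8 and 68.0 CPM in replicates 1 to 5. In the control aorta it ran from 77.6 to 193 CPM with a median of 109 CPM. Here the groups overlapped, since the Prdm6-deficient replicate 2 lay above 3 of the 6 controls.

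Gja1 fell in the Prdm6-deficient DA, with a log2 fold change of -1.32 ± 0.24 (SE) and an adjusted p of 3.4e-04 in edgeR's quasi-likelihood test. A gene was called where its adjusted p was under 0.01 and its log2 fold change past 0.5 up or down. Its aortic log2 fold change was -0.84 ± 0.24 with an adjusted p of 0.0395, and the gene was not called. The difference between both vessels, DA minus aorta, was -0.48 ± 0.33 with an adjusted p of 0.563, so a different effect in the DA was not shown. Without 1 library it ranged from -0.66, without control aorta replicate 1, to -0.32, without Prdm6-deficient aorta replicate 2. The embryo numbers in the labels fall into a lower, first run and a higher, second run, and what the runs stand for is not stated. The first run held 3 Prdm6-deficient and 2 control DA libraries, and the second 2 and 5. For the aorta these were 2 and 1, and 3 and 5, so run and genotype are unevenly mixed. Within the first run of animal numbers the DA fold change of Gja1 was -1.50 with an adjusted p of 0.0311. Within the second run the fold change was -1.02 with an adjusted p of 0.0401. Both keep the direction, and neither passes the call with 3 against 2 and 2 against 5 libraries.

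Gja1 and the smooth muscle markers fell in the same comparison, with 8 of the 10 markers called lower in the Prdm6-deficient DA and 0 called higher. In the aorta, 1 of the 10 was called, and it was higher. Over all tested genes 5.43% were called in the DA, 2.45% in the aorta and 5.36% between the control vessels. The summed smooth muscle level ran from 10230 to 12460 CPM in Prdm6-deficient DA and from 14950 to 26480 CPM in control DA. Between the control vessels 8 of the 10 markers were called higher in the DA, and Gja1 had a fold change of -0.10 ± 0.22 (adjusted p 0.870) with a 95% interval from -0.53 to 0.33. Within groups, the correlation of Gja1 with the summed smooth muscle level over the 23 libraries was 0.0386. The part of the smooth muscle level in the fall of Gja1 was not tested.

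Gja4 (ENSMUSG00000050234.7, on chromosome 4) is one of both arterial endothelial connexins. It stood at 132, 153, 136, 155 and 150 CPM in Prdm6-deficient DA replicates 1, 2, 5, 6 and 7, and control DA ran from 29.5 to 72.9 CPM with a median of 63.2 CPM. In the Prdm6-deficient aorta it stood at 153, 117, 146, 111 and 138 CPM in replicates 1 to 5, and control aorta ran from 42.3 to 99.2 CPM with a median of 70.1 CPM. In both vessels all 5 Prdm6-deficient libraries lay above all controls.

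Gja4 rose with genotype in both vessels. The log2 fold change was 1.29 ± 0.17 in the DA, with an adjusted p of 4.2e-06, and 0.93 ± 0.18 in the aorta, with an adjusted p of 0.00118. The difference between the vessels was 0.37 ± 0.25, with an adjusted p of 0.545, and 0.24 without control aorta replicate 5. Within the second run of animal numbers the aorta fold change was 1.01 with an adjusted p of 0.0247, so it kept its size without passing the call. The first run had 1 control aorta library, too few for a value of its own.

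**Figure D1:**
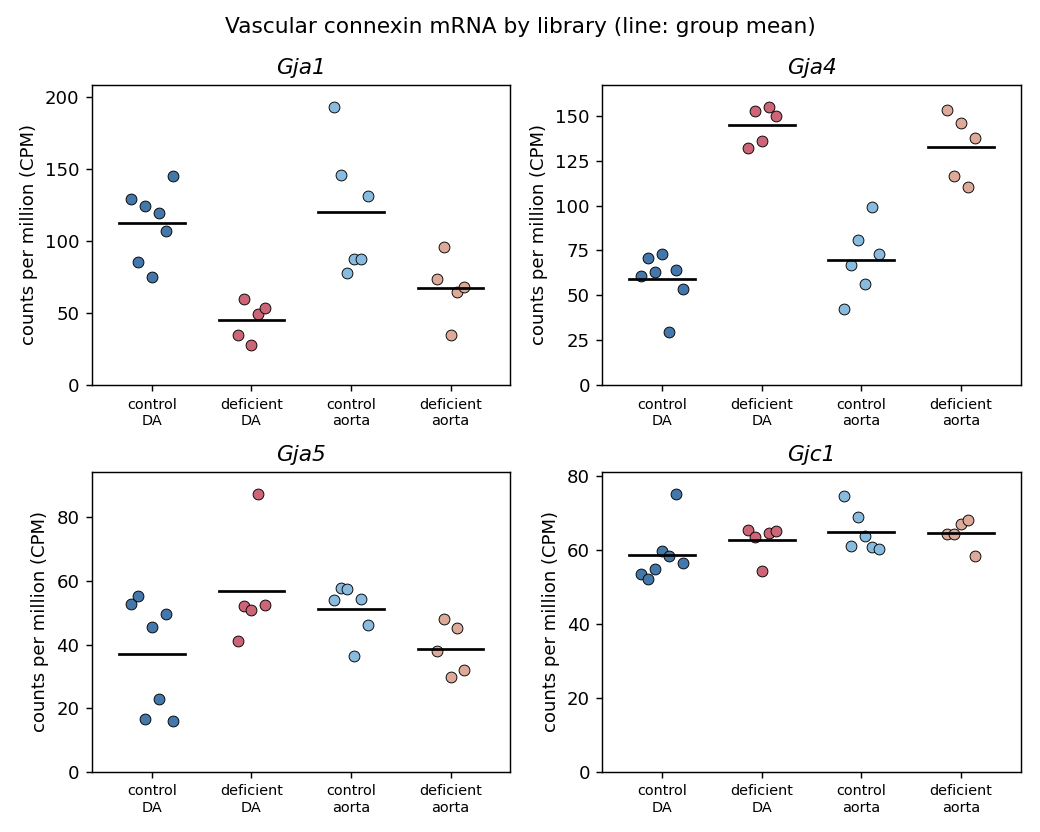
CPM of Gja1, Gja4, Gja5 and Gjc1 in each library (points) of the control and Prdm6-deficient DA and aorta, with group means as lines. Gja1 lies between 27.9 and 59.8 CPM in the Prdm6-deficient DA, below all control DA libraries, and Gja4 lies between 111 and 155 CPM in the Prdm6-deficient libraries.

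Gja5 (ENSMUSG00000057123.14, on chromosome 3) is the other arterial endothelial connexin. Its values in Prdm6-deficient DA replicates 1, 2, 5, 6 and 7 were 41.1, 52.2, 50.8, 87.4 and 52.3 CPM. The control DA ran from 16.1 to 55.1 CPM with a median of 45.6 CPM, in a wide spread: replicates 3, 5 and 7 were at 16.6, 22.9 and 16.1 CPM and the other 4 at 45.6 CPM or more. In the Prdm6-deficient aorta it stood at 38.0, 48.0, 29.7, 45.2 and 31.9 CPM in replicates 1 to 5, against 36.3 to 57.9 CPM with a median of 54.3 CPM in controls. The groups overlapped in both vessels.

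Gja5 was not called in any comparison. Its log2 fold change was 0.62 ± 0.26 in the DA (adjusted p 0.130), or 0.41 without Prdm6-deficient DA replicate 6, and -0.41 ± 0.27 in the aorta (adjusted p 0.611). The values point in opposite directions, and the difference between them was 1.02 ± 0.37 with an adjusted p of 0.131, so it was not called either. Gja5 shares 165 exon bases with the antisense gene Gpr89, and the labels do not say whether strand was used in counting. Some Gja5 counts are fractions, such as 299.43 in control DA replicate 3, as RSEM gives where it divides reads among places.

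Gjc1 (ENSMUSG00000034520.14, on chromosome 11), the smooth muscle connexin, was the steadiest of the 4. It stood at 65.6, 63.6, 54.5, 64.7 and 65.2 CPM in Prdm6-deficient DA replicates 1, 2, 5, 6 and 7, and control DA ran from 52.3 to 75.3 CPM with a median of 56.6 CPM. In the aorta it stood at 64.4, 64.5, 67.2, 68.3 and 58.4 CPM in Prdm6-deficient replicates 1 to 5, against 60.4 to 74.8 CPM with a median of 62.4 CPM in controls. The groups overlapped throughout. The log2 fold change was 0.09 in the DA, with a 95% interval from -0.07 to 0.26, and -0.01 in the aorta, with an interval from -0.18 to 0.16. Scaling by total counts alone turned the sign of the aorta value, to 0.04. Both intervals exclude the fold changes of Gja1 and Gja4 in the same vessel.

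Gjb2 (ENSMUSG00000046352.7) and Gjb6 (ENSMUSG00000040055.9), neighbours on chromosome 14, were close to absent at this depth. Gjb2 had no count in 17 of the 23 libraries and at most 12, in control DA replicate 4. Gjb6 had no count in 8 libraries, 1 to 3 counts in 14, and 29 counts in Prdm6-deficient DA replicate 1, where it reached 1.81 CPM. A limit of 3 counts corresponds to between 0.135 and 0.201 CPM in these libraries, and this limit covers counting error only. No fold change is given for either gene. Fitted without the filter, among 26533 genes, neither had an adjusted p under 0.01 in either genotype comparison or between the control vessels.

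Of the 4 members tested, 2 were called in the DA, Gja1 lower and Gja4 higher, where 5.43% of all tested genes were called. In the aorta 1 of 4 was called, Gja4, where 2.45% of all tested genes were called. The groups did not overlap for 2 of 4 members in the DA and 1 of 4 in the aorta, beside 5.66% and 6.95% of all tested genes. The median log2 fold change of the 4 was 0.36 in the DA and -0.21 in the aorta, beside 0.01 and -0.001 over all tested genes, and a median over genes that moved in opposite directions describes none of them. Between control DA and control aorta 0 of 4 were called by edgeR, and 0 by DESeq2 and by limma-voom, where edgeR called 5.36% of all tested genes. At an unadjusted p under 0.05 the count was also 0. For the difference of the genotype effect between the vessels 0 of 4 were called by edgeR, DESeq2 and limma-voom, with 1, Gja5, at an unadjusted p under 0.05, where edgeR called 2.58% of all tested genes. The genotype comparison in the DA and the control vessels share the control DA libraries.

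**Figure D2:**
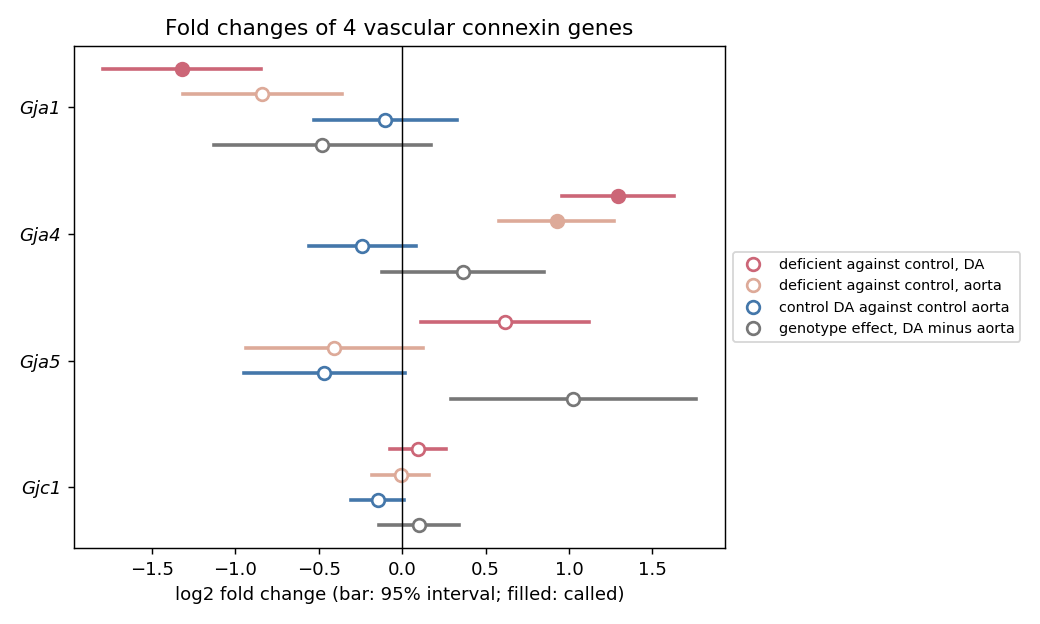
Log2 fold changes (points) with 95% intervals (bars) of Gja1, Gja4, Gja5 and Gjc1 for the genotype comparison in each vessel, for control DA against control aorta, and for the difference of the genotype effect. Filled points were called, namely Gja1 at -1.32 in the DA and Gja4 at 1.29 in the DA and 0.93 in the aorta.

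The opposite changes of Gja1 and Gja4 can be read within each library, where scaling drops out. For each Gja1 count, Prdm6-deficient DA replicates 1, 2, 5, 6 and 7 held 3.78, 2.55, 4.89, 3.16 and 2.78 Gja4 counts. The control DA held 0.247 to 0.971, with a median of 0.506. Aortic ratios were 2.08, 1.22, 4.21, 1.71 and 2.02 in Prdm6-deficient replicates 1 to 5 and 0.219 to 1.13, with a median of 0.601, in controls. All 10 Prdm6-deficient libraries had more Gja4 than Gja1 counts, while 11 of the 13 control libraries had fewer. The ratio was formed after both fold changes were seen and is given without a test. Over the 23 libraries the log2 levels of Gja1 and Gja4 had a correlation of -0.783, which the group difference carries in part, since it was -0.391 after the group means were taken out.

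**Figure D3:**
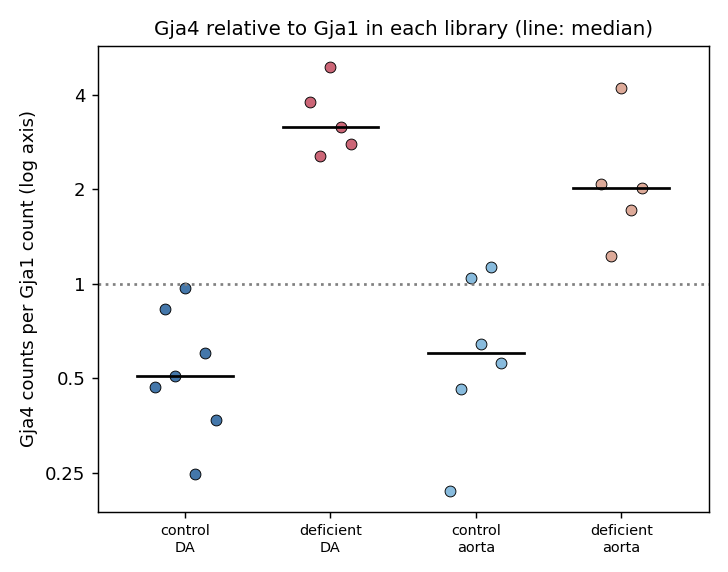
Gja4 counts per Gja1 count in each library (points, log axis) with group medians as lines and a dotted line at 1. Prdm6-deficient libraries lie at 1.22 or above, and control libraries at 1.13 or below.

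Levels of different genes were compared per length, as CPM per kilobase of annotated exon. In control DA, Gja4 had a mean of 35.2, Gjc1 11.7, Gja1 10.9 and Gja5 6.44 CPM per kilobase. In the Prdm6-deficient DA the order was Gja4 at 86.2, Gjc1 at 12.5, Gja5 at 9.88 and Gja1 at 4.4. In control aorta Gja4 was at 41.5, Gjc1 at 13.0, Gja1 at 11.7 and Gja5 at 8.89, and in the Prdm6-deficient aorta Gja4 was at 78.8, Gjc1 at 12.9, Gja5 at 6.71 and Gja1 at 6.57. Gja4 led in each group, and Gja1 was last in both Prdm6-deficient groups. The length of Gja1 weighs on this, because its annotated exons span 10257 bases and its longest transcript 3889. Per kilobase of longest transcript Gja1 was second in control DA, at 28.9, and last in Prdm6-deficient DA, at 11.6, but the third of the 4 in the Prdm6-deficient aorta, at 17.3, ahead of Gja5 at 10.5.

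The order of the 4 groups was also followed gene by gene in CPM. For Gja1 the means ran from 120 in control aorta and 112 in control DA to 67.4 in Prdm6-deficient aorta and 45.1 in Prdm6-deficient DA, and no step between neighbours was called. For Gja4 they ran from 145 in Prdm6-deficient DA and 133 in Prdm6-deficient aorta to 69.9 in control aorta and 59.2 in control DA, and the step between the genotypes was called, with an adjusted p of 0.00118. For Gja5 and Gjc1 no step between neighbours was called. Between Prdm6-deficient DA and Prdm6-deficient aorta edgeR, DESeq2 and limma-voom called 0 of 4, with 1, Gja1, at an unadjusted p under 0.05, and edgeR called 0.267% of all tested genes. Against control aorta, the Prdm6-deficient DA differed for Gja1, at -1.42 ± 0.25, and Gja4, at 1.06 ± 0.18, that is, for 2 of 4 beside 2.02% of all tested genes.

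Both arterial endothelial connexins were set against the endothelial markers of the same library, as a percentage of the summed CPM of the 12 markers. Gja4 was 10.7, 10.7, 11.5, 9.49 and 10.7% of that sum in Prdm6-deficient DA replicates 1, 2, 5, 6 and 7, and 2.86 to 6.26% in control DA, with a median of 5.22%. Prdm6-deficient aorta replicates 1 to 5 had 9.80, 7.31, 10.6, 7.61 and 9.75%, and control aorta had 4.87 to 8.19% with a median of 6.74%. Gja4 thus stood apart in the DA and overlapped in the aorta. The mean log2 difference was 1.11 in the DA, with an adjusted p of 0.00649 in a 2-sided exact permutation test, and 0.43 in the aorta, with an adjusted p of 0.0364 in the same exact test. With Cdh5 alone in place of the sum, the aorta value was 0.42 with an adjusted p of 0.106 in the exact test, and with Pecam1 alone it was 0.47 with an adjusted p of 0.0312. With the sum, leaving out any of Prdm6-deficient aorta replicates 1, 3 and 5 or control aorta replicates 1, 2, 4 and 6 also took the adjusted p past 0.05, with values from 0.34 to 0.45.

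Gja5 went the other way in the aorta. It was 2.43, 3.0, 2.15, 3.12 and 2.26% of the endothelial sum in Prdm6-deficient aorta replicates 1 to 5 and 4.13 to 6.23%, with a median of 4.81%, in controls. Every Prdm6-deficient aorta lay below every control aorta. The mean log2 difference was -0.95 with an adjusted p of 0.00649 in the exact permutation test, from the smallest p that 462 arrangements can give, 0.00216, while the plain level of Gja5 was not called. In the DA it was 3.32, 3.68, 4.29, 5.35 and 3.75% against 1.39 to 4.69% with a median of 3.86%, a difference of 0.52 with an adjusted p of 0.176 in the exact test. The endothelial sum itself moved with genotype in the aorta, where 4 of the 12 markers were called higher and 0 lower. In the DA 1 of 12, Cldn5, was called higher. Over all tested genes 2.45% were called in the aorta and 5.43% in the DA. The summed level ran from 1384 to 1599 CPM in the Prdm6-deficient aorta and from 868 to 1289 CPM in the control aorta, without overlap. A gene with an unchanged plain level would thus have a lower percentage in the Prdm6-deficient aorta. The plain log2 fold change of Gja5 there was -0.41. How many other genes separate by such a percentage was not counted.

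**Figure D4:**
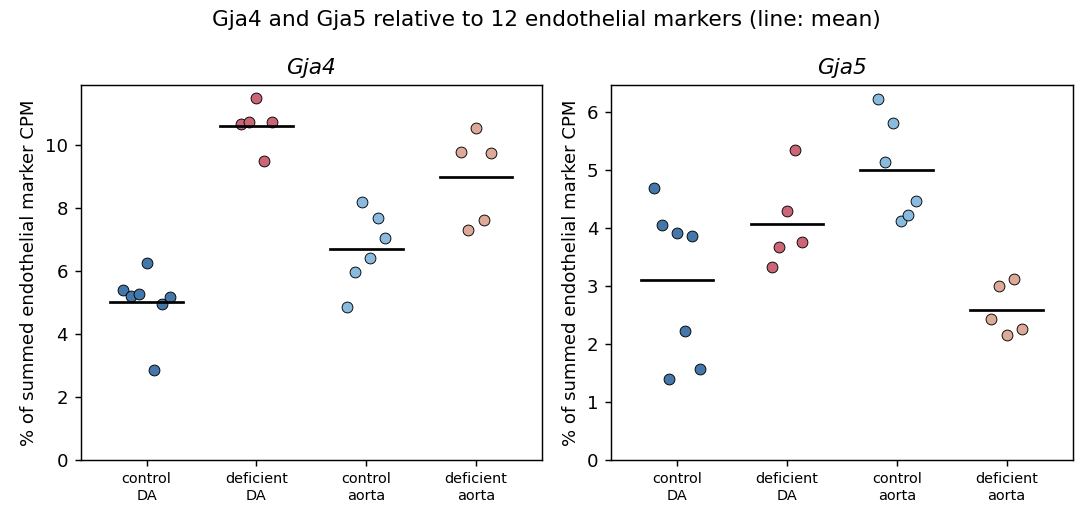
Gja4 (left) and Gja5 (right) as a percentage of the summed CPM of 12 endothelial markers in each library (points), with group means as lines. Gja4 lies at 9.49% or more in the Prdm6-deficient DA and at 6.26% or less in the control DA, and Gja5 lies at 3.12% or less in the Prdm6-deficient aorta and at 4.13% or more in the control aorta.

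Between the control vessels, per endothelial marker level, Gja4 was lower in the DA by a mean log2 difference of -0.43 and Gja5 by -0.81, each with an adjusted p of 0.0332 in the exact permutation test. Both lost the threshold with Cdh5 alone as the denominator, at an adjusted p of 0.0962 in the exact test, and Gja5 without control aorta replicates 1, 2, 3, 4 or 6, Gja4 without replicates 2 to 6 of that group. With Pecam1 alone both kept it, at -0.51 for Gja4 and -0.90 for Gja5, each with an adjusted p of 0.0227 in the exact test. Paired by animal in the 6 control embryos that gave both vessels, Gja5 per endothelial level was lower in the DA in 6 of 6 and Gja4 in 5 of 6. The mean log2 differences were -0.64 for Gja5, with an adjusted p of 0.0469 in a 2-sided exact sign-flip permutation test, and -0.45 for Gja4, with an adjusted p of 0.112 in the same exact test. The unadjusted p of Gja5, 0.0312, is the smallest that the 64 exact permutations can give. Their plain levels were not called between the vessels.

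In 6 control embryos both vessels were sequenced, and the DA of each was set beside its own aorta. Gja5 was lower in the DA in 5 of 6 embryos, with a median log2 difference of -0.14. The differences were large in the embryo of DA replicate 7, at 16.1 CPM in the DA and 54.5 CPM in the aorta, and in that of DA replicate 5, at 22.9 and 46.3 CPM, and at most 0.33 in size in the other 4. Gja4 was lower in the DA in 4 of 6, most in the same embryos of replicates 5 and 7, by -1.31 and -0.90 on the log2 scale. Gja1 was lower in the DA in 4 of 6 and Gjc1 in 5 of 6, with medians of -0.18 and -0.10.

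**Figure D5:**
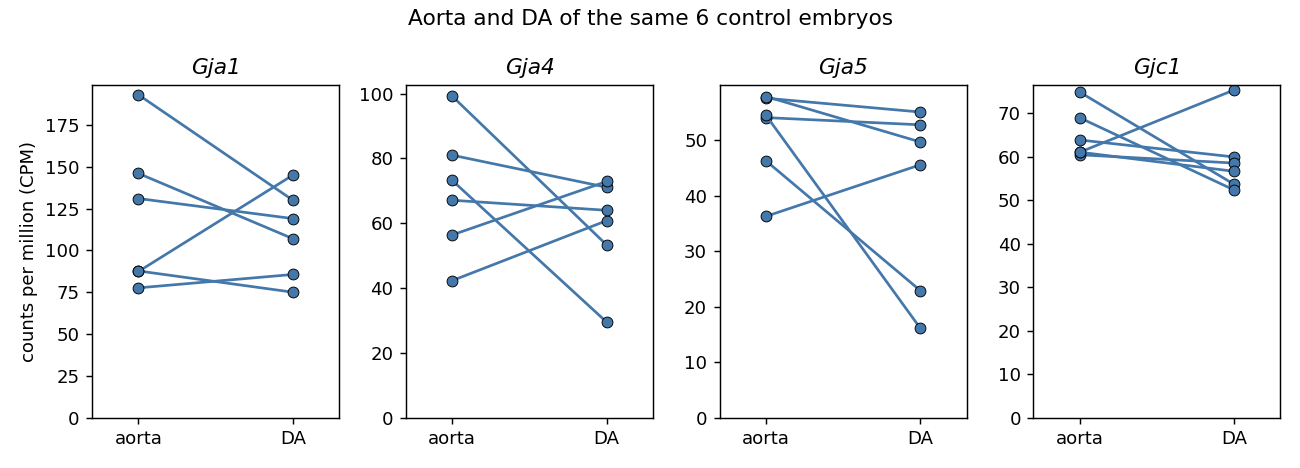
CPM of Gja1, Gja4, Gja5 and Gjc1 in the aorta and the DA of 6 control embryos, each joined by a line. In 1 embryo Gja5 goes from 54.5 CPM in the aorta to 16.1 CPM in the DA, and in another Gja4 goes from 73.2 to 29.5 CPM.

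The genes whose log2 level was most like that of each member were found among 11835 genes over the 23 libraries, as a description without a test. For Gja1 they were Stom (r = 0.90), Dusp10 (0.874) and Filip1l (0.827), and for Gja4 they were Kcna5 (0.92), Thbs2 (0.917) and Cp (0.91). With the group means taken out, these fell to 0.642 to 0.715 for Gja1 and 0.682 to 0.688 for Gja4. For Gja5 they were Synpo2l (0.863), Atp1b1 (0.841) and Lrrc32 (0.835), which kept 0.802 to 0.82 within groups, so the spread of Gja5 among libraries of one group was shared by these genes. For Gjc1 the values over all libraries were lower, with Zfp575 (0.737), Fam81a (0.707) and Arhgap44 (0.698). Within groups these were 0.708, 0.649 and 0.623, near the values within groups for Gja1 and Gja4. The libraries share embryos and the scaling.

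Among the other connexin genes, Gja3, Gja6, Gjb5 and Gjc3 were low and were not called by edgeR in either genotype comparison or between the control vessels. Gja3, a connexin of the lens, had group means of 2.97 CPM in Prdm6-deficient DA, 3.26 in control DA, 2.28 in Prdm6-deficient aorta and 0.962 in control aorta. Its log2 fold change between the control vessels was 1.75 ± 0.51 with an adjusted p of 0.0239, and for genotype it was -0.13 ± 0.52 in the DA and 1.24 ± 0.54 in the aorta. Gjb5 lies beside Gja4 on chromosome 4, and Gja4 rose while Gjb5 had a log2 fold change of -0.94 ± 0.79 in the DA and -0.59 ± 0.82 in the aorta, neither of which was called. For Gja6 these values were 0.56 ± 1.37 and 0.59 ± 1.45, and for Gjc3 they were 0.16 ± 0.81 and 0.59 ± 0.86.

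Pannexins form single-membrane channels that release ATP. Between the control vessels Panx1 was higher in the DA, at a mean of 25.4 against 15.9 CPM and a log2 fold change of 0.67 ± 0.16 with an adjusted p of 0.00391. With genotype it was at -0.35 ± 0.17 in the DA (adjusted p 0.200) and -0.02 ± 0.17 in the aorta. Panx2 passed the filter at group means of 0.112 to 0.684 CPM and was not called, and Panx3 did not pass.

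Among proteins that bind, modify or anchor gap junctions, 13 of 14 genes were tested. In the DA 5.43% of all tested genes were called, with a median log2 fold change of 0.01. Of this list 2 were called lower and 0 higher there, with a median of -0.23. They were Src, a tyrosine kinase that phosphorylates Cx43, at -0.58 ± 0.13 (adjusted p 0.00309), and Prkca, a protein kinase C gene, at -0.69 ± 0.16 (adjusted p 0.00462). Src stood at a mean of 35.4 CPM in Prdm6-deficient DA and 53.1 CPM in control DA, and for both kinases the groups overlapped. Tjp1, whose product binds the tail of Cx43, was at 0.02 ± 0.08 in the DA and -0.02 ± 0.08 in the aorta. In the aorta edgeR and limma-voom called 0 of 13 and DESeq2 called 1, with 4 at an unadjusted p under 0.05. Cav1, a caveolar protein found with connexins at the membrane, was lower in the DA of the control vessels, at -0.67 ± 0.11 (adjusted p 1.4e-04).

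Of the genes of adherens and tight junctions, 16 of 16 were tested. In the DA edgeR called 3 higher and 1 lower, and in the aorta 1 higher and 1 lower. It called 5.43% of all tested genes in the DA and 2.45% in the aorta. DESeq2 and limma-voom each called 3 in the DA, and in the aorta DESeq2 called 3 and limma-voom 2. Cdh11 rose in both vessels, at 0.50 ± 0.08 (adjusted p 3.7e-05) and 0.52 ± 0.08 (adjusted p 7.9e-05). Cldn5, the tight junction protein of endothelium, rose in the DA at 1.01 ± 0.24 (adjusted p 0.00408), and Cdh3 fell there at -0.79 ± 0.11 (adjusted p 9.4e-06). Cdh13 rose in the DA, at 0.69 ± 0.18 (adjusted p 0.00814), and fell in the aorta, at -0.99 ± 0.19 (adjusted p 9.1e-04), which is the direction of the uncalled Gja5 values in each vessel. With the group means taken out, Cdh13 had the highest correlation with Gja5 over the 23 libraries, 0.901. Between the control vessels Cdh3 and Jam2 were higher in the DA, at 0.66 ± 0.10 and 0.64 ± 0.14, and Cdh13 was lower, at -1.18 ± 0.17. The medians of the list were 0.06 in the DA and 0.15 in the aorta, beside 0.01 and -0.001 over all tested genes.

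Among 15 transcription factors and signalling genes known to act on connexin genes, 15 of 15 were tested and 2 were called higher and 0 lower in each vessel. Of all tested genes, 5.43% were called in the DA and 2.45% in the aorta, and the list was written with earlier results of these data known. Tbx2, a T-box repressor known to lower Gja1 and Gja5 in the heart, rose from a mean of 13.3 to 53.1 CPM in the DA and from 17.6 to 63.6 CPM in the aorta. Its log2 fold change was 2.0 ± 0.26 (adjusted p 2.6e-06) in the DA and 1.85 ± 0.26 (adjusted p 3.1e-05) in the aorta. Notch1 rose in the DA, at 0.81 ± 0.16 (adjusted p 7.7e-04), and Sox17, a factor of arterial endothelium, rose in the aorta, at 0.86 ± 0.20 (adjusted p 0.00664). Klf2, a flow-responsive endothelial factor, was higher in the DA of the control vessels, at 0.53 ± 0.12 (adjusted p 0.00343). The medians of the list were -0.06 in the DA and 0.07 in the aorta, beside 0.01 and -0.001 over all tested genes. Whether any of these genes acted on the connexin genes here was not tested.

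Some markers of other cell types were also called between the genotypes, where edgeR called 5.43% of all tested genes in the DA and 2.45% in the aorta. Of 6 melanocyte markers, edgeR called 4 lower in the Prdm6-deficient DA, where DESeq2 called 5 and limma-voom 1. They had a summed level of 2.44 to 4.96 CPM, led by Mitf, against 32.2 to 229 CPM, led by Dct, in control DA, and 3 of the 6 were at or under 3 counts in all Prdm6-deficient DA libraries. Of 8 fibroblast markers, led by Col3a1, edgeR called 2 higher in the DA and 1 in the aorta. Of 4 endocardial or valve markers, 1 was called higher and 1 lower in the DA and 3 higher in the aorta, and of 6 arterial endothelial markers, led by Efnb2, edgeR called 0 in the DA, with 2 at an unadjusted p under 0.05 and 1 each by DESeq2 and limma-voom, and 2 higher in the aorta. The summed arterial endothelial level ran from 667 to 749 CPM in the Prdm6-deficient aorta and from 413 to 522 CPM in the control aorta. In the DA the groups overlapped, with 577 to 711 CPM in Prdm6-deficient and 545 to 595 CPM in control libraries. Of 4 tested neuron markers edgeR called 1, Elavl4, higher in each vessel, and limma-voom called 0 in the DA. Within groups, over the 23 libraries, the correlations past 0.4 in size of Gja4 were 0.647 with the summed endothelial, -0.467 with the smooth muscle, 0.438 with the fibroblast and 0.404 with the leukocyte level. Those of Gja5 were -0.673 with the endocardial or valve, -0.644 with the Schwann cell or glia, 0.584 with the epithelium, 0.547 with the endothelial, 0.532 with the mesothelium and -0.473 with the smooth muscle level. Gja1 had 1, -0.484 with the red cell level, and Gjc1 had 1, -0.49 with the endocardial or valve level. These were picked by size from the values of each of the 4 members with every marker list. With the arterial endothelial level Gja4 had 0.307 and Gja5 had 0.2. The summed Schwann cell level was 233 CPM in control DA replicate 7 and 24.3 to 45.0 CPM in the other control DA libraries. The part of these cell types in the connexin changes was not tested.

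Markers of cardiomyocytes, epithelium, mesothelium, Schwann cells, leukocytes and red cells were not called by edgeR in either genotype comparison. At an unadjusted p under 0.05 they numbered 2 of 8, 1 of 5, 0 of 4, 4 of 7, 0 of 6 and 0 of 6 in the DA. In the aorta they numbered 0 of 8, 0 of 5, 3 of 4, 1 of 7, 5 of 6 and 0 of 6. In the DA, DESeq2 called 1 Schwann cell marker and limma-voom called 3, with 1 cardiomyocyte marker, and in the aorta DESeq2 called 1 mesothelium and 2 leukocyte markers and limma-voom 1 leukocyte marker. In the aorta, 4 of 4 mesothelium and 6 of 6 leukocyte markers had a lower value in the Prdm6-deficient group, with medians of -2.12 and -1.04. Their sums did not overlap there, with 2.36 to 23.7 CPM against 30.3 to 97.9 CPM in controls for mesothelium and 52.9 to 82.0 CPM against 98.7 to 189 CPM for leukocytes. In the DA, the mesothelium sum ran from 3.57 to 209 CPM in Prdm6-deficient and 14.6 to 358 CPM in control DA, and the cardiomyocyte sum from 101 to 549 CPM and from 40.8 to 1447 CPM. Of the red cell markers, led by Hbb-bs, 6 of 6 had a higher value in the Prdm6-deficient DA and 6 of 6 a lower value in the Prdm6-deficient aorta, with medians of 0.74 and -0.83. The difference between these effects was not called for any of the 6 by edgeR, DESeq2 or limma-voom, with 6 at an unadjusted p under 0.05. The summed red cell level was 137600 CPM in Prdm6-deficient DA replicate 1 and 24850 to 36150 CPM in the other 4 of that group, and 136500 CPM in control aorta replicate 4 and 26770 to 47050 CPM in the other 5.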

How the data were processed

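The deposited values are RSEM expected counts per gene, estimated by the authors from reads filtered with the FASTX-Toolkit, cleared of adapters with tagdust and aligned to mm10 with STAR, and not normalized. Columns were matched to samples by name, with 0 unmatched, and replicate 4 of the Prdm6-deficient DA was not used. Symbols and coordinates came from GENCODE M21 on mm10, which held 54723 of the 54752 identifiers without their version. Expected counts were rounded. Genes were filtered with filterByExpr, scaled by TMM and fitted in edgeR 4.0.16 (R 4.3.3) with 1 mean per group over the 23 libraries, and the quasi-likelihood test compared genotypes in each vessel, the control vessels, the Prdm6-deficient vessels, Prdm6-deficient DA with control aorta, and the difference of the genotype effects. Adjustment of p followed Benjamini and Hochberg over 16463 genes. Gja4 and Gja5 per summed endothelial marker level were compared by 2-sided exact permutation tests, adjusted over 2 genes and 3 comparisons, with a threshold of 0.05. The control vessels were also compared paired by animal, with sign-flip permutations.

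The members and lists were chosen with earlier results of these data known. Named genes were the members and Prdm6, other connexins and pannexins that passed the filter (some are not used here), the called genes of the other lists (at most 4 per list and comparison), and the 3 genes most correlated with each member. Tjp1, the marker genes named singly and the correlation of Cdh13 with Gja5 were chosen after their values were seen. Alternatives covered scaling, filter, DESeq2 1.42.0, limma-voom (limma 3.58.1), the libraries in the fit, replicate number, animal-number run or animal as terms, denominators and lengths. Control embryos pair the control vessels by animal, and the paired libraries' deviations from their group means had correlations between -0.0215 and 0.0804. No 2 libraries of a group agreed within sampling noise. The fits were also run on simulated data, and the outcome is not given here.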

Additional observations from a re-analysis of the deposited data

Results flagged for a closer look

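Of 44 groups of values checked for a sample far from the others, 10 had one. The chance rate of about 1 in 20 holds only for normally distributed values, so it is no measure for this count. Gja5 stood at 87.4 CPM in Prdm6-deficient DA replicate 6, with the next library at 52.3 CPM. Gjc1 stood at 54.5 CPM in Prdm6-deficient DA replicate 5, below the next at 63.6, and at 75.3 CPM in control DA replicate 6, above the next at 59.9. Gja4 was 2.86% of the summed endothelial marker level in control DA replicate 5, with the next at 4.96%. The remaining 6 rest on few counts, and where all other libraries of a group had 0 the flag was fixed in advance. Gjb2 stood at 0.284 CPM in Prdm6-deficient DA replicate 2, 0.802 CPM in control DA replicate 4, 0.0488 CPM in Prdm6-deficient aorta replicate 5 and 0.045 CPM in control aorta replicate 5. Gjb6 stood at 1.81 CPM in Prdm6-deficient DA replicate 1 and 0.144 CPM in control aorta replicate 6.

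The genotype effect differed between DA and aorta, by edgeR's test of the difference itself, for 3 genes of the junction and partner lists and for no member. The difference of the log2 fold changes, DA minus aorta, was 1.68 for Cdh13, 0.80 for Cav1 and -0.88 for Cdh3. Among the cell type markers edgeR called the same difference for 7 of 10 smooth muscle, 1 of 6 arterial endothelial, 1 of 4 endocardial or valve and 1 of 8 fibroblast markers. Over all tested genes it was called for 2.58%.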

How the results depend on the processing

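Of 828 log2 fold changes of the 4 tested members, over 37 other settings and 6 comparisons, 812 kept direction and call, 11 changed direction, 5 lost the call and 0 gained one. Of 207 counts of members called, 4 moved. None of the changes of direction concerned a called value. Where no cause is given, the cause was not tested.

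Gja1 in the DA was -1.50 within the first run of animal numbers and -1.02 within the second, and Gja4 in the aorta was 1.01 within the second, all short of the call with fewer libraries. For Prdm6-deficient DA against control aorta, the second run gave -1.19 for Gja1 and 1.16 for Gja4, also short of it. Members called in the DA numbered 1 in each run, and within the second run 0 in the aorta and 0 for Prdm6-deficient DA against control aorta. The first run could not be fitted for comparisons that use control aorta, which had 1 library there. The difference between the vessels needs all 4 groups and has no value with only the groups of one comparison.

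Gjc1 in the aorta turned to 0.0435 with total counts only, 0.0116 with the replicate number as a block and 0.00848 without the control embryo that carried Cre. Leaving out 1 library at a time gave -0.0332 to 0.0350, above 0 without Prdm6-deficient aorta replicate 5 or control aorta replicates 1 or 3. Between the Prdm6-deficient vessels Gjc1 was 0.0403 within the second run and ranged from -0.0783 to 0.00328 without 1 library, turning without Prdm6-deficient DA replicate 5. For Prdm6-deficient DA against control aorta it was 0.000808 within the second run, and Gja5 ranged from -0.0568 to 0.247 without 1 library, turning without Prdm6-deficient DA replicate 6. Gja1 between the control vessels ranged from -0.199 to 0.0854, turning without control aorta replicate 1.

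With Cdh5 alone as denominator, Gja4 per endothelial level was 0.42 for genotype in the aorta and -0.39 between the control vessels, and Gja5 was -0.77 between the control vessels, all past 0.05. Paired by animal, a setting chosen after seeing the data, Gja4 between the control vessels was -0.45 and missed 0.05, and Gja5 was -0.64 and kept it. Without 1 library they ranged from 0.34 to 0.50, from -0.52 to -0.30 and from -0.94 to -0.64, and many of these missed 0.05.

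The number of all tested genes called moved by over 1.5 times as follows. Between the Prdm6-deficient vessels it was 137 with DESeq2, 83 with only those groups, 16 with the replicate block, 2 and 6 within the first and second run, 15 without the pooled libraries and 22 to 58 without 1 library. In the aorta it was 702 with only those groups and 226 within the second run, and in the DA 147 and 419 within the first and second run. The difference between the vessels had 166 within the second run, and Prdm6-deficient DA against control aorta 84 within it and 212 without the pooled libraries. A comparison of control vessels limited to embryos that gave both was chosen after seeing the data, to stand beside the fit with the animal as a block, and called 688 genes against 674 with the block.

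Depth limits Gjb2 and Gjb6, where 3 counts correspond to 0.135 to 0.201 CPM. The small groups, the embryos shared between vessels, the pools, the single control embryo with Cre and the bulk tissue limit all comparisons. Genotype and the presence of Cre cannot be told apart with 1 such control.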
